A study of Mus musculus with 17 samples.

Results

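The genes described here are 38 genes of endoplasmic reticulum (ER) folding and secretory stress, chosen by name from the known branches of the unfolded protein response and of collagen export, out of 31053 genes in the count table. They comprise 16 chaperones and folding enzymes of the ER, 3 transducers of the stress response, 4 targets of ATF4, 4 genes of ER-associated degradation (ERAD), 4 genes of the translocon and 7 genes of collagen export. Their values were followed over the first days after myocardial infarction (MI) in sorted mouse cardiac fibroblasts (CFs), the cells that lay down the collagen scar. MI was induced by permanent ligation of the left anterior descending coronary artery in C57BL/6 mice of 8 to 10 weeks that carried GFP under the control of the Collagen1a1 promoter (genotype Collagen1a1-GFP+). GFP+ cells without the endothelial protein CD31 and the leukocyte protein CD45 were sorted from the infarcted hearts on days 1 to 6 after MI (days post-infarction, dpi). There were 4 libraries of 3 dpi, a single one of 5 dpi and 3 for each other day. Every group shared the genotype, the strain and the infarction, so that no uninjured CFs enter the comparisons. The sort takes cells with an active Collagen1a1 promoter, and p-values measure the spread between the libraries. The study's methods call these biological replicates, without saying whether each came from a separate animal.

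Proteins bound for secretion enter the ER through the translocon, fold there with the help of chaperones and protein disulfide isomerases, and leave in COPII coated vesicles. When unfolded protein accumulates, the sensors IRE1, ATF6 and PERK act on the transcription factors XBP1, ATF6 and ATF4, of which XBP1 and ATF6 induce chaperones and ERAD genes and ATF4 induces genes of amino acid supply and, under prolonged stress, the factor CHOP encoded by Ddit3. Procollagen is large and is modified and folded in the ER before its export, which needs the cargo receptor encoded by Mia3, the COPII coat and, in several tissues, the factors CREB3L1 and CREB3L2. XBP1 and ATF6 are activated by splicing and by cleavage, and ATF4 by translation, none of which a count of transcript 3′ ends measures.

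Transcripts were counted at their 3′ ends by MARS-seq, a poly-A based method with linear amplification, and total counts ranged from 8021815 to 22029938 per library. All 38 genes passed the filter of at least 10 counts in at least 3 libraries, as did 14030 genes in all, and 37 of the 38 reached 10 counts in every library. The fibroblast markers, 6 genes that include Col1a1, Pdgfra and Tcf21, summed to between 10300 and 31900 CPM (counts scaled to a common library total) in every library. The sum hides opposite courses. Between 3 to 5 and 1 to 2 dpi, edgeR called 2 of these 6 higher and 2 lower, against 5.25% and 2.24% of all genes. Their median log2 fold change was -0.46. The summed endothelial markers (5 genes) ranged from 15.3 to 55.6 CPM, with Cdh5, Kdr and Tie1 at 0 counts in at least 1 library and Tek at 147 to 787 counts. The summed mural markers (4 genes) ranged from 19.4 to 95.4 CPM in 16 libraries and were at 133 CPM at 5 dpi, and Rgs5 of this list rose by 1.89 ± 0.28 on the log2 scale from 1 and 2 to 3 to 5 dpi (edgeR adjusted p = 0.00014). The summed leukocyte markers (7 genes, with Ptprc, Adgre1, S100a8 and S100a9 at 0 counts in at least 1 library) ranged from 37.3 to 162 CPM at 3 dpi and from 8.6 to 50.6 CPM on the other days, and the summed cardiomyocyte markers (5 genes) from 52.7 to 97.3 CPM at 6 dpi and from 5.68 to 47.2 CPM before. The summed erythroid markers (4 genes) ranged from 308 to 2390 CPM at 4 dpi against 1.81 to 26 CPM at 3 dpi. Of 5 markers of plasma cells, which also carry a large ER, Jchain, Mzb1, Igkc and Ighm had at most 45 counts in any library, each with 0 in at least 1, and Sdc1 had 344 to 2341. Their sum ranged from 119 to 224 CPM at 3 dpi, was 130 at 5 dpi and ranged from 36.7 to 111 CPM on the other days, and both that passed the count filter, Ighm and Sdc1, were higher at 3 to 5 dpi (adjusted p = 0.033 and 0.046). The part of these cells in the values below was not tested, and in bulk libraries fewer cells of a type and less RNA per cell cannot be told apart.

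Replicates 1 and 2 of 6 dpi and replicate 2 of 3 dpi stood apart from the other 14 libraries. Genes were split into 4 equal groups by the GC content of their last 500 bases. The group of highest GC content lay above that of the lowest by a median of 0.85, 1.00 and 0.30 on the log2 scale in these 3 libraries, against -0.49 to 0.03 in the others. The 38 genes had a median GC content of 46.9% against 47.7% over the 8916 genes compared. At 6 dpi, 28 of the 38 genes were lower in both of these libraries than in replicate 3, against 38.1% of all genes tested, and 7 were higher in both, against 39.1%. Replicate 2 of 3 dpi was below the other libraries of its day in 13 of the 38, against 36.2%, and above them in 16, against 35.6%. The mitochondrial share of counts was 0.32% to 0.78% in these 3 libraries, the other 3 dpi libraries and that of 5 dpi, and 1.22% to 2.04% elsewhere. Of 9 genes of the response to tissue dissociation, 0 passed between 3 to 5 and 1 to 2 dpi by edgeR, with 2 at an unadjusted p under 0.05. DESeq2 called 2 of them, against 11.1% of all genes. Over the course edgeR called 1 of the 9, against 15% of all genes, with 5 at an unadjusted p under 0.05. For 6 against 3 to 5 dpi 1 was higher, against 6.25%. From 3 to 4 dpi 0 were called by edgeR, with 4 at an unadjusted p under 0.05. For the results at 6 dpi that passed the test, values without these 3 libraries are given as well. Beside this, the libraries of 4 and 6 dpi held more Xist than Y-linked counts and those of 2, 3 and 5 dpi the reverse. At 1 dpi, replicate 1 held 1670 Xist against 84 Y-linked counts, replicate 2 461 against 1455 and replicate 3 63 against 1207. The sex-linked pattern and the day thus cannot be told apart between 3 and 4 dpi or between 5 dpi and 4 or 6 dpi. In 6 against 3 to 5 dpi, the 6 dpi libraries differ in pattern from those of 3 and 5 dpi.

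The promoters of many stress response genes carry short elements that its transcription factors are known to bind. Stretches that hold one are shown for some of the genes, whether or not their levels changed. Of the 38 genes, 32 had an entry among the RefSeq promoters of GRCm38.p6, which span 250 bases before to 50 after the start. The search covered both strands for the ER stress response element (ERSE, CCAAT and CCACG with 9 bases between them), ERSE-II (ATTGG and CCACG with 1 base between them), the unfolded protein response element (UPRE, TGACGTGG) and the ATF4 element (TGATGCAA). ERSE, ERSE-II and UPRE share the letters CCACG, but no matches overlapped in these promoters. The capitals mark the element, on the strand of the gene.
Hspa5, chr2:34772015-34772053, plus strand, ERSE: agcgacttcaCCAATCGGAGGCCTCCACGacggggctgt
Pdia6, chr12:17266481-17266519, plus strand, ERSE: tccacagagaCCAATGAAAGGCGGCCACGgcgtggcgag
Dnajc3, chr14:118937817-118937855, plus strand, ERSE: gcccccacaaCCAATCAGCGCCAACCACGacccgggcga
Creld2, chr15:88819510-88819548, plus strand, ERSE reversed: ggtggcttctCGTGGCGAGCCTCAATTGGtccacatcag
Calr, chr8:84847065-84847103, minus strand, ERSE reversed: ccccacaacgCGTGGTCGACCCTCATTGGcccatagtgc
Herpud1, chr8:94386307-94386397, plus strand, reversed ATF4 element and ERSE-II: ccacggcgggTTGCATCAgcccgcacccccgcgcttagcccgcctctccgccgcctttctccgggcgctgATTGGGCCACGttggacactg
Chac1, chr2:119351039-119351066, plus strand, ATF4 element reversed: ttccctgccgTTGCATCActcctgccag
Kdelr3, chr15:79516368-79516395, plus strand, UPRE reversed: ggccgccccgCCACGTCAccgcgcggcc
Sec23a, chr12:59011994-59012021, minus strand, UPRE: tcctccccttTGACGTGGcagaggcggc
Sec24d, chr3:123267460-123267487, plus strand, UPRE: cccgggcgccTGACGTGGcactagcaac

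ERSE was present in 8 of the 32 promoters, against 0.119% of 32851 promoters. Of these 8 genes, 7 were chaperones (Hspa5, Hsp90b1, Calr, Canx, Pdia6, Dnajc3 and Creld2) and the other was the ERAD ligase gene Syvn1. UPRE was present in 3 of 32, which were the export genes Sec23a, Sec24d and Kdelr3, against 0.676% of all promoters. ERSE-II was found in Herpud1 and Dnajb11 and the ATF4 element in Herpud1 and Chac1, against 0.0365% and 0.895% of all promoters. No element was found in the promoters of Pdia4, Pdia5, Sec61b, Ddit3, Asns and Edem1, whose levels passed a test described below. The elements were searched by letters, and a match describes the sequence without showing that a factor binds it. The genes were chosen by name from the known branches of this response, so their shares beside those of all promoters are a description and no test.

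Over the whole course, 10 of the 38 genes differed between days at an adjusted p under 0.05 (edgeR's quasi-likelihood test), against 15% of all genes tested. They were the chaperones and folding enzymes Hyou1, Pdia4, Pdia5, Pdia6 and Creld2, the ATF4 targets Ddit3 and Asns, the ERAD gene Edem1, the translocon gene Sec61b and the KDEL receptor gene Kdelr3. The 38 genes did not move as a block between 1 to 2 and 3 to 5 dpi. When 3 to 5 dpi were set against 1 and 2 dpi, 4 genes were higher (Pdia4, Pdia5, Sec61b and Kdelr3) against 5.25% of all genes, and 1 was lower (Ddit3) against 2.24%. The median log2 fold change of the 38 genes was -0.09, and 17 of the 38 were above 0. When 6 dpi was set against 3 to 5 dpi, 1 gene was higher (Ddit3) against 6.25% of all genes and 9 were lower against 5.29%, with a median of -0.51 over the 38. Here 6 of the 38 were above 0, and the median over all genes tested was -0.01. These comparisons share the 3 to 5 dpi libraries. Without replicate 2 of 3 dpi, 20 of the 38 genes were called over the course, against 24.8% of all genes, 9 for 3 to 5 against 1 and 2 dpi, against 11.5%, and 19 for 6 dpi, against 21%. Without replicate 3 of 6 dpi, 19 were called over the course, against 20.5%. With replicate 1 or 2 of 6 dpi left out, 5 were called over the course, against 9.38% and 9.55%, and without replicate 2 of 1 dpi 6 were, against 12.4%.

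**Figure D1:**
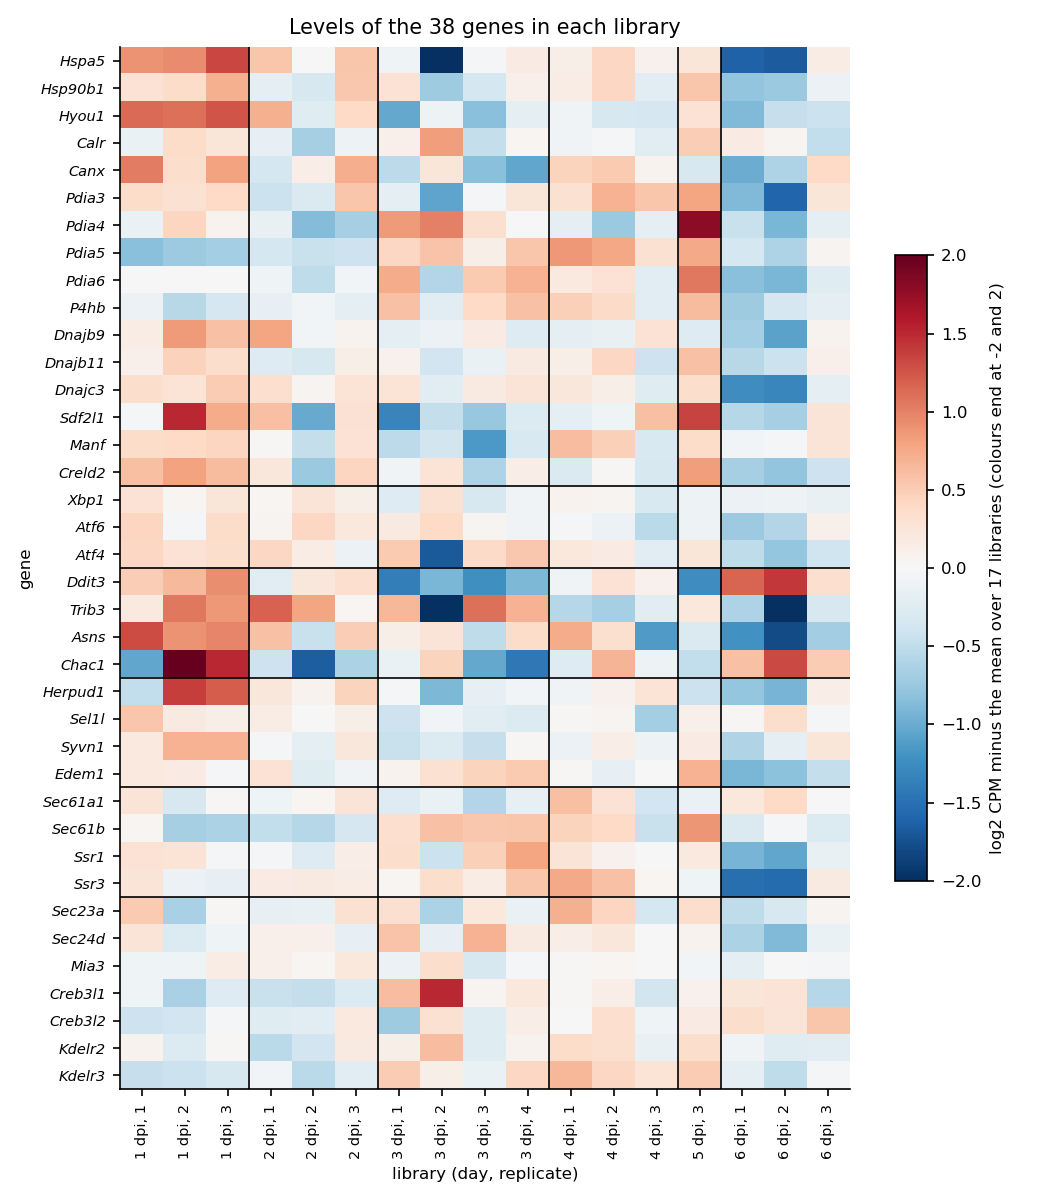
Level of each of the 38 genes (rows, grouped as chaperones, transducers, ATF4 targets, ERAD, translocon and collagen export from top to bottom) in each of the 17 libraries (columns, by day and replicate), as log2 CPM minus the gene's mean over the libraries. Hspa5 is at 7.12 in replicate 2 of 3 dpi and at 7.54 and 7.49 in replicates 1 and 2 of 6 dpi, against 9.07 to 10.48 in the other 14 libraries.

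The groups followed different courses when the mean level over the genes of a group was set relative to 1 dpi. For the 16 chaperones it averaged -0.41 ± 0.29 on day 2 (SD, n = 3), -0.48 ± 0.13 on day 3 (n = 4) and -0.27 ± 0.13 on day 4 (n = 3) on the log2 scale. It stood at 0.22 in the library of 5 dpi and at -0.87 ± 0.39 at 6 dpi (n = 3). Replicates 1 and 2 of 6 dpi, which stood apart in GC content, were at -1.07 and -1.13, and replicate 3 was at -0.42. The 4 ATF4 targets averaged -0.81 ± 0.28, -1.21 ± 0.17 and -0.91 ± 0.25 on days 2, 3 and 4, and -0.96 ± 0.18 on day 6. The 1 dpi libraries themselves ranged from -0.59 to 0.35 in this group. Its 4 genes differed. From 1 to 2 dpi the day mean of Chac1, a gene of few counts, went from 1.94 ± 1.68 to 0.17 ± 0.66 log2 CPM, and that of Trib3 from 3.87 to 3.83. At 6 dpi, Asns (3.21 against 5.51) and Trib3 (2.09 against 3.87) lay below their 1 dpi means. Chac1 (1.88 against 1.94) was near its own and Ddit3 (6.97 against 6.68) above it. The mean over the 7 genes of collagen export took the other direction. It averaged 0.04 ± 0.14, 0.32 ± 0.13 and 0.32 ± 0.21 on days 2, 3 and 4, with 0.38 in the 5 dpi library and 0.03 ± 0.07 on day 6. These group means carry no test. From 1 to 3 dpi the day means in this group rose most in Creb3l1 (6.82 ± 0.29 to 7.75 ± 0.65 log2 CPM) and Kdelr3 (7.46 ± 0.07 to 8.08 ± 0.29). Mia3 (6.34 to 6.32) and Sec23a (6.07 to 6.05) did not rise. Sec24d (7.10 to 7.45), Creb3l2 (6.99 to 7.13) and Kdelr2 (7.76 to 7.96) lay between. The highest day mean fell on 1 dpi in 20 of the 38 genes when the single 5 dpi library was left out. Among them were 11 of 16 chaperones, 3 of 3 transducers, 3 of 4 ATF4 targets and 3 of 4 ERAD genes, but 0 of 4 translocon and 0 of 7 export genes. The lowest day mean was at 6 dpi, where replicates 1 and 2 stood apart, in 22 of the 38. The shares of all genes for these counts of highest and lowest days were not taken. With the 5 dpi library counted, it held the highest value of 15 genes, 10 of them chaperones, and it has no replicate.

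**Figure D2:**
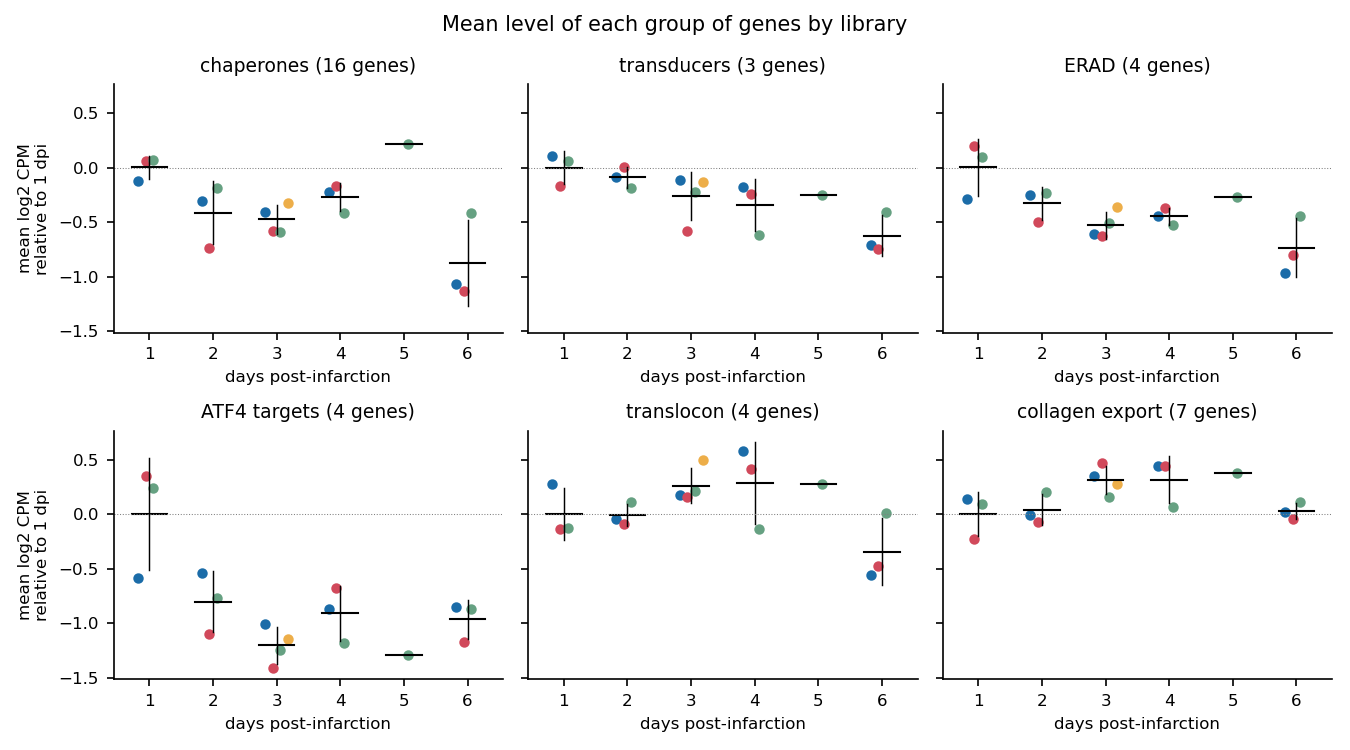
Mean log2 CPM over the genes of each group relative to its mean at 1 dpi (y axis) by day (x axis), 1 point per library coloured by replicate number, with the day mean (horizontal bar) and the SD (vertical bar, not drawn for the single 5 dpi library). The ATF4 targets lie between -1.41 and -1.01 at 3 dpi, while the collagen export genes lie between 0.16 and 0.47.

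None of the mRNAs of the transducers Xbp1, Atf6 and Atf4 passed the test in any of the 7 comparisons by edgeR, and 0 were called by DESeq2. Only 1 unadjusted p was under 0.05, that of Atf4 at 6 dpi against 3 to 5 dpi. Xbp1 encodes the factor activated by IRE1 splicing, and its level was 8.02, 7.77 and 7.97 log2 CPM at 1 dpi, 7.77, 7.99 and 7.85 at 2 dpi and 7.48, 8.04, 7.41 and 7.66 at 3 dpi. From 4 dpi on, the levels were 7.80, 7.78 and 7.43 at 4 dpi, 7.63 at 5 dpi and 7.62, 7.63 and 7.58 at 6 dpi. The 17 libraries thus lay between 7.41 and 8.04, and the libraries of neighbouring days overlapped from 1 to 5 dpi. Atf6, the membrane-bound sensor itself, had day means from 4.72 ± 0.26 at 1 dpi to 4.07 ± 0.44 at 6 dpi. Atf4 was at 9.24, 9.11 and 9.18 log2 CPM at 1 dpi, at 9.35, 7.15, 9.21 and 9.36 at 3 dpi and at 8.32, 8.04 and 8.42 at 6 dpi. The low 3 dpi value is replicate 2, 1 of the libraries that stood apart in GC content. The 6 dpi libraries of Atf4 lay below every library of 4 dpi (8.60 to 9.03), a separation that 10 of the 38 genes and 10.3% of all genes showed. The fold change against 3 to 5 dpi was -0.71 ± 0.34 (SE, adjusted p = 0.18 by edgeR's quasi-likelihood test). Without replicate 2 of 3 dpi, Atf4 passed in this comparison, with -0.82 ± 0.19 (adjusted p = 0.0049), and across the course (adjusted p = 0.015). Without all 3 libraries that stood apart the fold change was -0.66 ± 0.28 (adjusted p = 0.32).

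Of the 5 protein disulfide isomerase genes Pdia3 to Pdia6 and P4hb, whose products form and rearrange disulfide bonds, Pdia4 and Pdia5 were higher from 3 to 5 dpi than at 1 and 2 dpi, and the other 3 did not pass the test. Pdia5 (ENSMUSG00000022844, chr16:35397312-35490873 on GRCm38, minus strand) was at 4.68, 4.79 and 4.84 log2 CPM at 1 dpi, 5.17, 5.08 and 5.12 at 2 dpi and 5.93, 6.10, 5.64 and 6.08 at 3 dpi. The later libraries were at 6.40, 6.30 and 5.83 at 4 dpi, 6.28 at 5 dpi and 5.17, 4.91 and 5.58 at 6 dpi. Each of the 8 libraries of 3 to 5 dpi thus lay above each of the 6 libraries of 1 and 2 dpi, a separation that 1.7% of all genes tested showed, and above each of the 3 at 6 dpi. Pdia5 rose by 1.20 ± 0.17 on the log2 scale (SE, edgeR adjusted p = 8.7e-05), and remained higher at an adjusted p under 0.05 in all 27 alternatives run for this comparison. It then fell by 0.89 ± 0.21 (adjusted p = 0.011), but the value was -0.53 ± 0.26 (adjusted p = 0.39) without the 3 libraries that stood apart.

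Pdia4 (ENSMUSG00000025823, chr6:47796141-47813430, minus strand) encodes another isomerase of the ER lumen. Its levels were 4.49, 5.04 and 4.69 log2 CPM at 1 dpi, 4.47, 3.75 and 3.95 at 2 dpi and 5.47, 5.63, 4.93 and 4.62 at 3 dpi. It was then at 4.44, 3.87 and 4.43 at 4 dpi, 6.41 at 5 dpi and 4.16, 3.69 and 4.42 at 6 dpi. The libraries of 3 dpi were above those of 2 dpi without overlap, as in 9.7% of all genes tested. Those of 4 dpi were back in the range of 2 dpi, and the 5 dpi library was the highest of the 17. The rise from 1 and 2 dpi to 3 to 5 dpi was 0.88 ± 0.21 (edgeR adjusted p = 0.014), and it rests on the 5 dpi library, without which it was 0.32 ± 0.21 (adjusted p = 0.42). Between 3 and 2 dpi, Pdia4 rose by 1.14 ± 0.29 (adjusted p = 0.039).

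Pdia6 and P4hb, the latter the beta subunit of the prolyl hydroxylase that modifies collagen, had values of 0.63 ± 0.22 (edgeR adjusted p = 0.089) and 0.65 ± 0.20 (adjusted p = 0.050) from 1 and 2 to 3 to 5 dpi and did not pass the test. In Pdia6, replicate 2 of 3 dpi was at 8.46 log2 CPM, below 9.57 to 9.79 in the other 3 dpi libraries, and the range at 1 and 2 dpi was 8.54 to 9.06. Without the 3 libraries that stood apart, both passed, with 0.70 ± 0.15 (adjusted p = 0.0044) for Pdia6 and 0.69 ± 0.16 (adjusted p = 0.0076) for P4hb. In that fit 10 of the 38 genes passed, against 13.4% of the genes tested in it, and the 6 higher ones were Pdia4, Pdia5, Pdia6, P4hb, Sec61b and Kdelr3. Pdia3, which acts on glycoproteins with calnexin and calreticulin, was at 0.19 ± 0.28 (adjusted p = 0.74) in the fit of all libraries.

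Of the 11 chaperones that are not disulfide isomerases of the PDI family, 0 were called between 3 to 5 and 1 to 2 dpi by edgeR, with 3 at an unadjusted p under 0.05 (Hyou1, Canx and Dnajb9, each below 0), and DESeq2 called 1 (Hyou1). The highest day mean was at 1 dpi in 6 of them and at 5 dpi, a single library, in the other 5, which were Calr, Hsp90b1, Dnajb11, Sdf2l1 and Creld2. Hspa5 encodes BiP, the Hsp70 of the ER and the classical reporter of ER stress, and was singled out after its values were seen. It was at 10.06, 10.10 and 10.48 log2 CPM at 1 dpi, 9.71, 9.15 and 9.71 at 2 dpi and 9.07, 7.12, 9.12 and 9.31 at 3 dpi. Later levels were 9.27, 9.57 and 9.24 at 4 dpi, 9.39 at 5 dpi and 7.54, 7.49 and 9.30 at 6 dpi. The 3 libraries of 1 dpi were above the other 14, which held for 3 of the 38 genes (with Hyou1 and Asns) and for 0.927% of all genes, and the 3 lowest values were those of the libraries that stood apart. With all libraries, the change to 3 to 5 dpi was -0.68 ± 0.34 (edgeR adjusted p = 0.26), and without those 3 libraries it was -0.58 ± 0.16 (adjusted p = 0.024).

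Hyou1, an ER chaperone of the Hsp110 family, was at 3.02, 2.98 and 3.14 log2 CPM at 1 dpi, 2.59, 1.64 and 2.28 at 2 dpi and 0.87, 1.78, 1.05 and 1.69 at 3 dpi. From 4 dpi on, the levels were 1.81, 1.57 and 1.54 at 4 dpi, 2.17 at 5 dpi and 1.01, 1.43 and 1.46 at 6 dpi. It differed across the course (edgeR adjusted p = 0.018), and its 1 dpi libraries lay above the other 14. The change to 3 to 5 dpi was -0.92 ± 0.30 (adjusted p = 0.070), and without the 3 libraries that stood apart -0.98 ± 0.30 (adjusted p = 0.036). Canx, the membrane-bound lectin chaperone calnexin, was at -0.63 ± 0.27 (adjusted p = 0.17) with all libraries and at -0.75 ± 0.19 (adjusted p = 0.015) without them. Its soluble relative Calr, calreticulin, was at 0.26 ± 0.22 (adjusted p = 0.54), with day means between 9.59 and 10.40.

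Creld2, a stress-induced ER protein with disulfide isomerase activity, differed across the course (edgeR adjusted p = 0.020). It was at 7.25, 7.45 and 7.28 log2 CPM at 1 dpi, 6.87, 5.91 and 7.08 at 2 dpi and 6.57, 6.91, 6.02 and 6.78 at 3 dpi. The later libraries were at 6.36, 6.67 and 6.32 at 4 dpi, 7.48 at 5 dpi and 5.98, 5.86 and 6.23 at 6 dpi. The 1 dpi and 5 dpi libraries were the highest and the 6 dpi libraries lay below all of 4 dpi. The remaining chaperones, the Hsp90 of the ER encoded by Hsp90b1, the J-domain partners of BiP encoded by Dnajb9, Dnajb11 and Dnajc3, and Sdf2l1 and Manf, had values between -0.56 and 0.12 from 1 and 2 to 3 to 5 dpi, and none passed the test. The 8 genes with an ERSE in their promoter, which the sequences of Hspa5, Pdia6, Dnajc3, Creld2 and Calr illustrate, ranged from -0.68 to 0.63 in this comparison, and at 6 dpi against 3 to 5 dpi from -1.16 to -0.10 with 3 lower (Pdia6, Dnajc3 and Creld2), calls that were lost without the 3 libraries that stood apart.

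**Figure D3:**
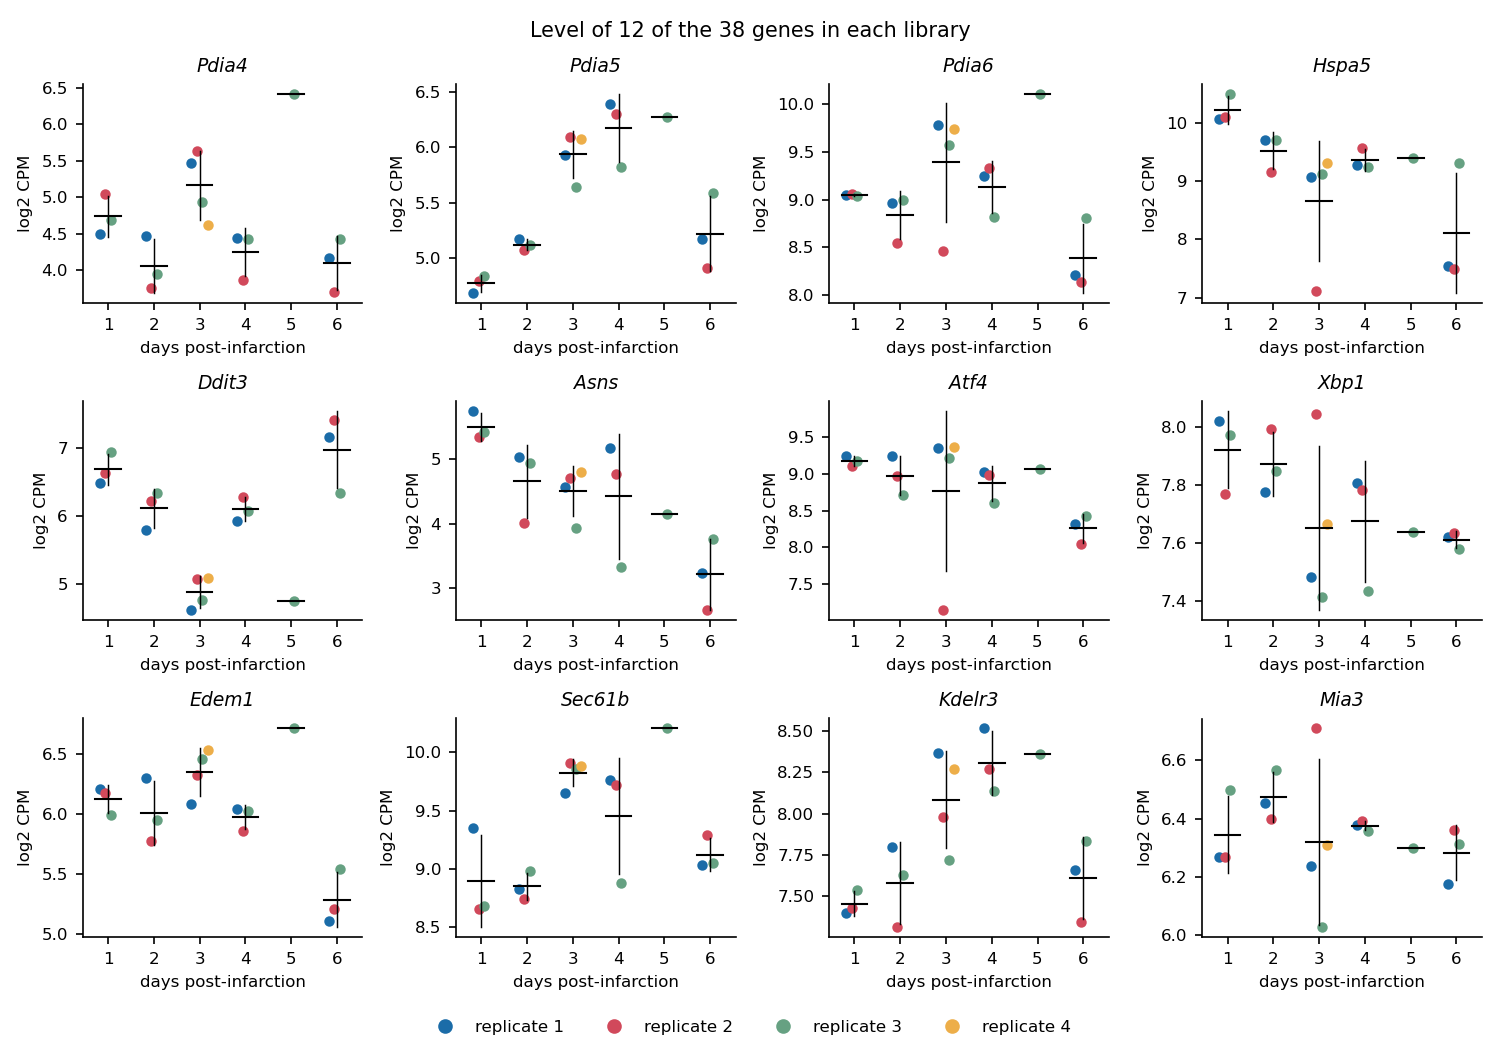
Level of 12 genes (log2 CPM, y axis of each panel to its own scale) by day (x axis), 1 point per library coloured by replicate number, with the day mean (horizontal bar) and the SD (vertical bar). Pdia5 is higher in each library of 3, 4 and 5 dpi (5.64 to 6.40) than in those of 1 and 2 dpi (4.68 to 5.17), Ddit3 is lowest at 3 and 5 dpi (4.62 to 5.09), and Mia3 stays between 6.03 and 6.71.

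The 4 ATF4 targets did not follow 1 course. Ddit3 (ENSMUSG00000025408, chr10:127290774-127296288, plus strand) encodes CHOP, which promotes cell death under unresolved ER stress. It was at 6.49, 6.64 and 6.93 log2 CPM at 1 dpi, 5.79, 6.22 and 6.33 at 2 dpi and 4.62, 5.08, 4.77 and 5.09 at 3 dpi. It was then at 5.93, 6.28 and 6.08 at 4 dpi, 4.75 at 5 dpi and 7.16, 7.41 and 6.34 at 6 dpi. The 3 and 5 dpi libraries formed the low end, with no value of another day below 5.79, and the 3 libraries of 6 dpi were above all 8 of 3 to 5 dpi, which 4.65% of all genes tested showed.

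Ddit3 fell by 1.16 ± 0.20 on the log2 scale from 1 and 2 to 3 to 5 dpi (edgeR adjusted p = 0.00081), and this call held in each of 27 alternatives. Between neighbouring days it fell by 1.23 ± 0.25 from 2 to 3 dpi (adjusted p = 0.011) and rose by 1.21 ± 0.25 from 3 to 4 dpi (adjusted p = 0.012). The low libraries of 3 and 5 dpi held more Y-linked than Xist counts, and those of 4 and 6 dpi the reverse. For Ddit3 the day and the sex-linked pattern thus cannot be told apart in the rise from 3 to 4 dpi. At 6 dpi it was 1.79 ± 0.23 above 3 to 5 dpi (adjusted p = 0.00034). This value came to 1.27 ± 0.19 (adjusted p = 0.0012) with an offset for GC content and to 1.11 ± 0.25 (adjusted p = 0.086) without the 3 libraries that stood apart. The call at 6 dpi was also lost in the fit of libraries with more Xist than Y-linked counts, which sets 6 dpi against 4 dpi alone. The last 500 bases of Ddit3 are rich in GC, at 57.0%. Ddit3 overlaps Mars on the opposite strand, which held 14224 counts over the 17 libraries against 19243 for Ddit3, and the sources used here do not say whether strand was used in counting.

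Asns, asparagine synthetase, was at 5.75, 5.34 and 5.42 log2 CPM at 1 dpi, 5.04, 4.01 and 4.94 at 2 dpi and 4.57, 4.70, 3.94 and 4.81 at 3 dpi. Later levels were 5.18, 4.77 and 3.32 at 4 dpi, 4.15 at 5 dpi and 3.23, 2.65 and 3.76 at 6 dpi. The 1 dpi libraries were the 3 highest, and the course differed between days (edgeR adjusted p = 0.014). At 6 dpi it was lower than at 3 to 5 dpi by a log2 fold change of -1.17 ± 0.36 (adjusted p = 0.043), which was -0.66 ± 0.53 (adjusted p = 0.61) without the 3 libraries that stood apart. Trib3, a pseudokinase that restrains ATF4, was at 1.05 log2 CPM in replicate 2 of 3 dpi and 0.88 in replicate 2 of 6 dpi, and between 2.49 and 4.34 in the other 15. Chac1, which degrades glutathione, had from 6 to 223 counts, and at 1 dpi alone it spread from 0.04 to 3.22 log2 CPM. Neither passed the test in any comparison by edgeR with all libraries. Without replicate 2 of 3 dpi, Trib3 passed across the course (adjusted p = 0.011) and was lower at 6 dpi than at 3 to 5 dpi by -1.06 ± 0.37 (adjusted p = 0.047), and DESeq2 called Chac1 across the course (adjusted p = 0.032).

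Of the 4 ERAD genes, 3 had their highest day mean at 1 dpi, and Edem1 did not. Edem1, the lectin that passes misfolded glycoproteins to degradation, was at 6.21, 6.18 and 6.00 log2 CPM at 1 dpi, 6.30, 5.78 and 5.95 at 2 dpi and 6.09, 6.32, 6.46 and 6.54 at 3 dpi. From 4 dpi on, the levels were 6.04, 5.86 and 6.03 at 4 dpi, 6.71 at 5 dpi and 5.11, 5.20 and 5.54 at 6 dpi. The 6 dpi libraries lay below the other 14, and 4.28% of all genes tested had all 6 dpi libraries below those of 3 to 5 dpi. Edem1 was lower than at 3 to 5 dpi by a log2 fold change of -1.06 ± 0.20 (edgeR adjusted p = 0.0034). With the offset for GC content it was at -0.72 ± 0.19 (adjusted p = 0.022) and without the 3 libraries that stood apart at -0.81 ± 0.27 (adjusted p = 0.21).

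Herpud1, which recruits the ERAD complex and carries both an ERSE-II and an ATF4 element in its promoter, was at 6.07, 7.94 and 7.77 log2 CPM at 1 dpi, between 6.62 and 6.99 at 2 dpi, and at 6.52, 5.66, 6.39 and 6.50 at 3 dpi. It was at -0.78 ± 0.27 in 3 to 5 dpi against 1 and 2 dpi (edgeR adjusted p = 0.092). Syvn1, the ubiquitin ligase HRD1, and its partner Sel1l were at -0.33 ± 0.18 and -0.29 ± 0.17 in the same comparison (adjusted p = 0.31 and 0.34). The day means of Syvn1 ran from 7.03 ± 0.29 at 1 dpi to 6.22 ± 0.22 at 3 dpi, and those of Sel1l from 6.26 ± 0.24 to 5.74 ± 0.15.

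In the translocon, Sec61b was the only 1 of 4 genes called between 3 to 5 and 1 to 2 dpi. Sec61b (ENSMUSG00000053317, chr4:47474658-47483242, plus strand), the small beta subunit of the SEC61 channel, was at 9.36, 8.65 and 8.69 log2 CPM at 1 dpi, 8.83, 8.74 and 8.98 at 2 dpi and 9.65, 9.91, 9.86 and 9.88 at 3 dpi. The later libraries were at 9.77, 9.72 and 8.88 at 4 dpi, 10.20 at 5 dpi and 9.03, 9.29 and 9.05 at 6 dpi. The 4 libraries of 3 dpi lay above all 6 of 1 and 2 dpi, as in 3 of the 38 genes and 5.74% of all genes, and replicate 3 of 4 dpi fell among the early libraries. Sec61b rose by 0.95 ± 0.19 from 1 and 2 to 3 to 5 dpi (edgeR adjusted p = 0.0035), a call kept in each of 27 alternatives, and by 0.98 ± 0.26 from 2 to 3 dpi (adjusted p = 0.046).

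The channel subunit Sec61a1 had a value of -0.10 ± 0.19 in the same comparison (edgeR adjusted p = 0.81), and the translocon-associated proteins Ssr1 and Ssr3 had 0.15 ± 0.21 and 0.15 ± 0.25 (adjusted p = 0.73 and 0.79). Ssr3 shows how the libraries of 6 dpi differ among themselves, with 6.19, 6.16 and 7.88 log2 CPM against 7.54 to 8.45 in the other 14 libraries. Its value at 6 dpi against 3 to 5 dpi was -0.94 ± 0.32 (adjusted p = 0.063) with all libraries and -0.03 ± 0.29 (adjusted p = 0.98) without the 3 that stood apart.

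Among the genes of collagen export, Kdelr3 passed the test and the other 6 did not. Kdelr3 (ENSMUSG00000010830, chr15:79516411-79527739, plus strand) encodes a KDEL receptor, which returns escaped ER proteins from the Golgi, and its promoter holds a reversed UPRE. It was at 7.40, 7.43 and 7.54 log2 CPM at 1 dpi, 7.80, 7.31 and 7.63 at 2 dpi and 8.37, 7.98, 7.72 and 8.27 at 3 dpi. It was then at 8.52, 8.27 and 8.14 at 4 dpi, 8.36 at 5 dpi and 7.66, 7.34 and 7.83 at 6 dpi. Of the 8 libraries of 3 to 5 dpi, 7 were above all of 1 and 2 dpi, and replicate 3 of 3 dpi was within their range. Kdelr3 rose by 0.74 ± 0.17 (edgeR adjusted p = 0.0096), and its value at 6 dpi against 3 to 5 dpi was -0.64 ± 0.21 (adjusted p = 0.059), and -0.43 ± 0.29 (adjusted p = 0.54) without the 3 libraries that stood apart. It overlaps Ddx17 on the opposite strand, with 20316 counts against 57258 for Kdelr3.

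Creb3l1, an ER-bound transcription factor of collagen-secreting cells, was at 7.07, 6.50 and 6.89 log2 CPM at 1 dpi, 6.71, 6.68 and 6.89 at 2 dpi and 7.77, 8.66, 7.21 and 7.36 at 3 dpi. Later levels were 7.18, 7.29 and 6.78 at 4 dpi, 7.24 at 5 dpi and 7.40, 7.43 and 6.58 at 6 dpi. The 3 dpi libraries were above those of 1 and 2 dpi without overlap, and the highest was replicate 2, which stood apart in GC content. From 1 and 2 to 3 to 5 dpi the value was 0.60 ± 0.24 (edgeR adjusted p = 0.13), and from 2 to 3 dpi 1.11 ± 0.32 (adjusted p = 0.063). Its relative Creb3l2 and the receptor gene Kdelr2 had 0.23 ± 0.19 and 0.38 ± 0.19 (adjusted p = 0.51 and 0.25).

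Mia3 encodes TANGO1, the receptor that packs procollagen at ER exit sites, and its day means lay between 6.28 ± 0.10 at 6 dpi and 6.47 ± 0.09 at 2 dpi, with a value of -0.07 ± 0.15 between 3 to 5 and 1 to 2 dpi (edgeR adjusted p = 0.84). The COPII coat genes Sec23a and Sec24d, both with a UPRE in their promoters, were at 0.20 ± 0.23 and 0.18 ± 0.19 (adjusted p = 0.67 and 0.62). Over the same days, 8 of 10 genes of the secreted matrix rose, against 5.25% of all genes, with a median log2 fold change of 1.23, among them Col1a1 by 1.64 ± 0.27 and Fn1 by 3.21 ± 0.26 (adjusted p = 0.00061 and 2.4e-07). Col1a1 drives the reporter by which the cells were sorted. The median over the 7 export genes was 0.23 and that over the 16 chaperones -0.10, beside 0.00 over all genes tested.

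**Figure D4:**
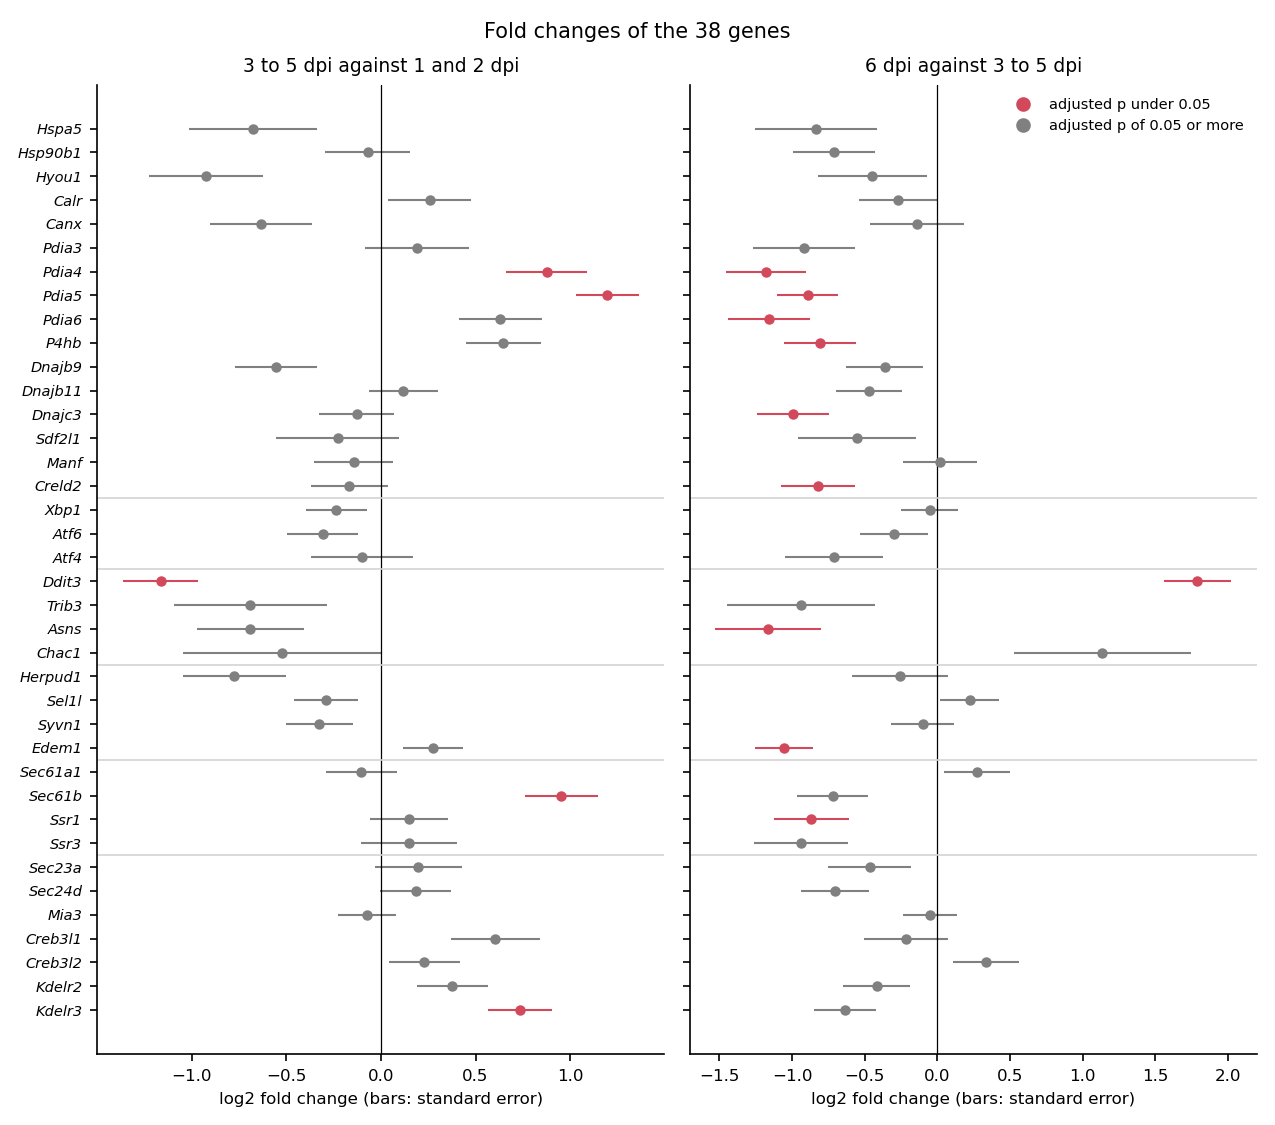
Log2 fold changes of the 38 genes (points, with bars of 1 standard error) between 3 to 5 dpi and 1 and 2 dpi (left) and between 6 dpi and 3 to 5 dpi (right), with grey lines between the groups in the order of the map of levels. Genes with an adjusted p under 0.05 are red, 5 on the left and 10 on the right, and Ddit3 lies at -1.16 on the left and 1.79 on the right.

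At 6 dpi, 6 of 16 chaperones were lower than at 3 to 5 dpi, Pdia4, Pdia5, Pdia6, P4hb, Dnajc3 and Creld2, with log2 fold changes from -0.81 to -1.18. Without the 3 libraries that stood apart these 6 ranged from -0.39 to -0.84 (adjusted p from 0.22 to 0.52). Asns, Edem1 and the translocon gene Ssr1 (-0.87 ± 0.26, edgeR adjusted p = 0.037, and -0.43 ± 0.27, adjusted p = 0.51, without those libraries) made up the 9. Of the 16 chaperones, 15 had a value below 0, and 0 of the 7 export genes passed by edgeR, with 2 at an unadjusted p under 0.05 and 2 called by DESeq2. The calls of Pdia4, P4hb and Creld2 also depended on the single 5 dpi library and were lost when it was left out. In that fit 9 of the 38 genes were called, 1 higher and 8 lower, against 1944 of 13989 genes tested. The counts with all libraries rest as well on replicates 1 and 2 of 6 dpi. With either of them left out, 2 genes were called (1 higher and 1 lower), against 3.5% and 2.14% of all genes, and without replicate 3 of 6 dpi 16, against 18.7%. Without both and replicate 2 of 3 dpi, 0 of the 38 were called by edgeR (8 at an unadjusted p under 0.05), against 0.225% of all genes tested. In that fit 6 dpi is a single library assumed to vary like the others. With an offset for GC content, 7 were called, 1 higher and 6 lower, against 7.73% of all genes.

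Between neighbouring days, 0 of the 38 genes were called from 1 to 2 dpi by edgeR, against 0.157% of all genes higher and 0.0214% lower, with 5 at an unadjusted p under 0.05 and 0 called by DESeq2. In this step 8 of the 38 were above 0, with a median of -0.20, beside 0.01 over all genes tested. From 2 to 3 dpi, 3 were higher (Pdia4, Pdia5 and Sec61b) against 1.82% of all genes and 1 was lower (Ddit3) against 1.12%. From 3 to 4 dpi Ddit3 alone was called, and it was higher, against 1.63% of all genes higher and 1.08% lower. DESeq2 called 3 from 3 to 4 dpi, against 6.27%. Without the 3 libraries that stood apart, 7 were called from 2 to 3 dpi, against 8.07%, and 3 from 3 to 4 dpi, against 7.42%. Without replicate 2 or 3 of 2 dpi, 0 were called from 2 to 3 dpi by edgeR, against 0.33% and 0.953% of all genes, with 8 and 6 at an unadjusted p under 0.05. Without replicate 2 of 4 dpi, 0 were called from 3 to 4 dpi by edgeR, against 0.904%, with 4 at an unadjusted p under 0.05. From 4 to 6 dpi 0 were called by edgeR, against 0.235% higher and 0.278% lower, while 13 had an unadjusted p under 0.05 and DESeq2 called 7, against 5.75%. In this step 6 of the 38 were above 0, with a median of -0.42, beside -0.02 over all genes tested. Without the 3 libraries that stood apart 0 were called from 4 to 6 dpi by edgeR, against 0.0145%, with 1 at an unadjusted p under 0.05.

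Of the wider lists of these pathways, 5 of 28 other ER folding genes passed the test between 3 to 5 and 1 to 2 dpi, 4 higher and 1 lower, and the shares of all genes for this and the following lists are again 5.25% higher and 2.24% lower. Ppic, a prolyl isomerase of the secretory pathway, rose by 1.11 ± 0.25 (edgeR adjusted p = 0.0066). Fkbp14, an isomerase that acts on collagen, rose by 0.90 ± 0.24 (adjusted p = 0.025), and Ero1l, the oxidase that recharges the disulfide isomerases, fell by 0.92 ± 0.24 (adjusted p = 0.022). Of 18 other genes of stress signalling, 1 passed. Gdf15, a secreted stress cytokine, was at 5.39, 5.77 and 6.00 log2 CPM at 1 dpi, 4.77, 4.91 and 5.10 at 2 dpi and 3.25, 3.66, 3.73 and 3.96 at 3 dpi, and fell by 1.33 ± 0.18 (adjusted p = 8.9e-05). Of 43 other genes of ER to Golgi transport, 2 were higher, among them the KDEL receptor gene Kdelr1 by 0.56 ± 0.17 (adjusted p = 0.046). Of 25 other genes of ATF4 metabolism, 1 was higher and 1 lower, and of 18 other ERAD and 30 other ER entry genes 0 passed by edgeR, with 2 of each at an unadjusted p under 0.05, while DESeq2 called 0 and 2, against 11.1% of all genes in either direction. The chaperones of the cytosol and mitochondria, 14 genes outside the ER, had a median of -0.54, with 2 lower and 0 higher, and DESeq2 called 5 lower. Over the course, edgeR called 9 of the 14, against 15% of all genes. Relative to 1 dpi their mean level was -0.73 ± 0.37, -0.80 ± 0.22, -0.85 ± 0.11 and -1.36 ± 0.06 on days 2, 3, 4 and 6 (SD). On each of these days it lay below that of the 16 ER chaperones, so the decline after 1 dpi was not particular to the ER.

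At 6 dpi against 3 to 5 dpi, 5 of the 25 other genes of ATF4 metabolism were lower and 0 higher, against 5.29% and 6.25% of all genes. They were Psat1 and Psph of serine synthesis and the aminoacyl-tRNA synthetase genes Gars, Iars and Nars, with -1.58 ± 0.35 for Psat1 (edgeR adjusted p = 0.0084) and -1.05 ± 0.23 for Iars (adjusted p = 0.0077). Without the 3 libraries that stood apart, 0 of the 25 were called by edgeR, against 0.225% of all genes, with 7 at an unadjusted p under 0.05.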

How the data were processed

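Bulk MARS-seq of 17 libraries of sorted CFs was analysed. Per the submitters' notes and the study's methods, demultiplexing used bcl2fastq (1.2.4), alignment to mm10 used STAR, and featureCounts gave the counts per gene. The deposited values are raw read counts without normalization, 1 column per library. Whether strand or duplicates were considered in counting is not given in the sources used here.

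All 17 libraries entered 1 edgeR model (4.0.16, R 4.3.3) in which each of the 6 days had its own level. Library sizes were scaled by TMM, contrasts were tested by quasi-likelihood, and 14030 genes that reached 10 counts in 3 or more libraries were kept. Benjamini-Hochberg adjustment ran over all of them, and a gene was called at an adjusted p under 0.05. In 3 to 5 dpi against 1 and 2 dpi each day has equal weight, so the single 5 dpi library weighs as much as the 4 of 3 dpi. Levels are given as log2 CPM (prior count 2) and are not compared between genes. Standard errors were derived from the fold change and its F statistic. The labels give the 5 dpi library 2 replicate numbers, of which that of its title was used, and names at 3 dpi follow another scheme. Replicate numbers did not pair the libraries: the mean correlation of deviations was 0.01 over 30 pairs with the same number and -0.006 over 72 others. Each of 18 pairs of replicates differed by more than counting error. The precision is set by the spread between libraries, and 0 counts would allow up to 0.136 to 0.374 CPM (3 counts, counting error only).

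The genes and lists were chosen with earlier results of these data known. Values are given for the transducers and, in each other group, for up to 4 genes with the largest change between 3 to 5 and 1 to 2 dpi among those that passed over the course with a mean of at least 100 counts, or, where fewer than 2 did, for any gene with that mean. In the wider lists up to 3 genes that passed were named. Other genes were named after their values were seen. Gene positions and transcript ends are from GENCODE vM21 (GRCm38), and promoters from RefSeq. Of 272 list names, 4 were matched through a synonym. Alternatives were DESeq2 (1.42.0), its size factors, other count filters, a replicate block, subsets of days and libraries and, chosen after seeing the data, an offset per library fitted by lowess to GC content and the exclusion of 3 libraries.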

Additional observations from a re-analysis of the deposited data

Results flagged for a closer look

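Only 3 dpi had 4 libraries, enough for a check of single libraries, and there replicate 2 was far from the other 3 in 5 of the 38 genes. It was at 7.12 log2 CPM for Hspa5 against 9.07 to 9.31 in the others, at 8.46 for Pdia6 against 9.57 to 9.79, at 7.15 for Atf4 against 9.21 to 9.36, at 1.05 for Trib3 against 3.83 to 4.26 and at 5.66 for Herpud1 against 6.39 to 6.52. The gap to the nearest library took 0.839 to 0.932 of the range of the day, and chance places about 1 in 20 groups past the limit used (Dixon's test). This library also differed from the other 3 dpi libraries in the relation of levels to GC content. The part of that relation in these values was not tested gene by gene.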

How the results depend on the processing

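No call of the 38 genes reversed under any alternative. The number of genes called was 10 across the course, 5 for 3 to 5 against 1 and 2 dpi, 10 for 6 against 3 to 5 dpi, 0 for 2 against 1, 4 for 3 against 2, 1 for 4 against 3 and 0 for 6 against 4 dpi. DESeq2 called 19, 9 and 16 in the first 3 of these, against 26.8%, 11.1% and 17.1% of all genes, 3 for 4 against 3 dpi and 7 for 6 against 4 dpi. With every gene with a count tested, 20 of the 38 were called across the course and 8 for 3 to 5 against 1 and 2 dpi. Of all 20569 genes, 3729 and 1486 were. For 4 against 3 and 6 against 4 dpi, 2 and 5 were called, beside 866 and 882 of all genes. Requiring 10 counts in every library, or leaving out the 3 dpi libraries, gave 1 for 6 against 4 dpi, against 140 of 10341 and 292 of 13834 genes. When the fit held just the days being compared, 5 were called for 6 against 3 to 5 dpi and 1 for 3 against 2 dpi. Of all genes, 926 of 13471 and 252 of 12931 were called in these fits. Libraries in which Y-linked counts exceeded Xist gave 5 across the course, against 459 of 13463 genes, in a fit of 1, 2, 3 and 5 dpi only. Libraries with more Xist were fitted for 4 and 6 dpi alone, so that 6 against 3 to 5 dpi became 6 against 4 dpi. There 0 were called by edgeR, against 14 of 12882 genes, with 14 of the 38 at an unadjusted p under 0.05.

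With a replicate block, which the numbers do not justify as pairing, 6 genes were called across the course, against 1494 of all 14030 genes. For 6 against 3 to 5 dpi 6 were called, against 1112, and for 3 against 2 dpi 2, against 174. With the 3 libraries apart in GC content left out, 10 were called for 3 to 5 against 1 and 2 dpi, 0 for 6 against 3 to 5 dpi, 7 for 3 against 2 dpi and 3 for 4 against 3 dpi. Leaving out 1 of 16 libraries at a time gave 5 to 20 across the course, 5 to 9 for 3 to 5 against 1 and 2 dpi, 2 to 19 for 6 against 3 to 5 dpi, 0 to 5 for 3 against 2 dpi, 0 to 2 for 4 against 3 dpi and 0 to 9 for 6 against 4 dpi. The highest numbers came without replicate 2 of 3 dpi (20, 9 and 19 in the first 3 comparisons) and, for 6 against 4 dpi, without replicate 3 of 6 dpi (9), and the lowest across the course and at 6 dpi without replicate 1 or 2 of 6 dpi (5 and 2). The counts over all genes moved as well, to 1402 of 13962 for 6 against 4 dpi without replicate 3 of 6 dpi. For 6 against 3 to 5 dpi, 6 were called without replicate 3 of 1 dpi, replicate 1 of 2 dpi, replicate 1 or 4 of 3 dpi, or replicate 1 or 2 of 4 dpi. Of all genes, 1175 to 1458 were called in these fits, beside 1619 with all libraries. For 3 against 2 dpi, 0 were called without replicate 2 or 3 of 2 dpi and 1 without replicate 3 of 1 dpi or replicate 1 of 3 dpi, and for 4 against 3 dpi 0 without replicate 2 of 4 dpi. The 2 fits that gave 1 called 314 of 13949 and 209 of 13997 genes. Kdelr3 and Pdia6 lost their call across the course in 15 and 16 of 26 alternatives. For 6 against 3 to 5 dpi, P4hb, Asns, Creld2 and Ssr1 lost theirs in 18, 17, 16 and 16 of 27, and for 3 against 2 dpi Pdia5 and Sec61b in 14 and 13 of 26. On raw library totals the ERAD group at 4 dpi was at -0.55 and the export group at 6 dpi at -0.14 relative to 1 dpi, and the other group levels moved by less than the SD.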
